A study of Mus musculus with 5 samples.

Results

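The proteasome genes were followed in liver from male Pitx3eyl-/- mice, which carry 2 copies of the eyeless allele of the lens transcription factor gene Pitx3, each mouse set against a pool of wild-type liver RNA on a 2-colour array. The members were the array's probes whose gene symbol starts with Psma, Psmb, Psmc, Psmd, Psme, Psmf or Psmg and a digit. They numbered 51 probes of 41 genes, among 20355 probes and 9930 named genes in all. The 5 mutants were 17 weeks old, 1 animal per array, and the wild-type pool held 4 mice per the sample labels and 6 per the labelling protocol. The mutant RNA carried Cy5 on replicates 1, 2 and 4 and Cy3 on replicates 3 and 5. The pool counted as 1 control sample tested against 0, so the spread between wild-type animals entered no error. No treatment is named in the labels.

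The proteasome is the cell's main machine for degrading proteins marked with ubiquitin. Its 20S core is a barrel of alpha rings, encoded by Psma genes, around beta rings, encoded by Psmb genes, of which Psmb5, Psmb6 and Psmb7 carry the constitutive proteolytic sites. Interferon-induced Psmb8, Psmb9 and Psmb10 take their places in the immunoproteasome, which shapes the peptides shown on MHC class I. Regulators cap the barrel: the 19S particle, with ATPases (Psmc) and non-ATPase subunits (Psmd) that bind, deubiquitinate and unfold substrates, and the PA28 and PA200 activators (Psme). In hepatocytes, with their heavy protein turnover, the subunits are made in matched amounts, and a shortage of proteasome activity is known to raise their genes together through the transcription factor NFE2L1.

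Since the results below set the constitutive sites beside their interferon-induced counterparts, the upstream sequences of 2 such pairs are shown. Psmb5 pairs with Psmb8, and Psmb6 with Psmb9. Each is the 250 bases before the RefSeq start of the gene in build GRCm38.p6, 5' to 3' on the gene's strand, with motif matches in capitals.
Psmb5, chr14:54617996-54618245, minus strand: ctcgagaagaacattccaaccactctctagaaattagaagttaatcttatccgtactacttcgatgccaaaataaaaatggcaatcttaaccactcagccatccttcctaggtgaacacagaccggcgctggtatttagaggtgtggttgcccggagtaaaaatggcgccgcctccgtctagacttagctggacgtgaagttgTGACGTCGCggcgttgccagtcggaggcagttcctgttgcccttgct
Psmb8, chr17:34197945-34198194, plus strand: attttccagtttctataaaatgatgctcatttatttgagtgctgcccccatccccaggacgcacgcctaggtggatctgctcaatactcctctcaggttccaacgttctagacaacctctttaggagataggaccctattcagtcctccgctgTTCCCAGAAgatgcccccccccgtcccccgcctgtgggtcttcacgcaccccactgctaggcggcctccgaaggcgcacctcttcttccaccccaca
Psmb6, chr11:70525107-70525356, plus strand: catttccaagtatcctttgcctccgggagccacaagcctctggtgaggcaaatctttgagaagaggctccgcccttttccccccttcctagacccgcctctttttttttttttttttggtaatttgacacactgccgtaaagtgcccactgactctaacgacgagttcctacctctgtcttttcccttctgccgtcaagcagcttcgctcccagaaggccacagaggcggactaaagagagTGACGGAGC
Psmb9, chr17:34187331-34187580, minus strand: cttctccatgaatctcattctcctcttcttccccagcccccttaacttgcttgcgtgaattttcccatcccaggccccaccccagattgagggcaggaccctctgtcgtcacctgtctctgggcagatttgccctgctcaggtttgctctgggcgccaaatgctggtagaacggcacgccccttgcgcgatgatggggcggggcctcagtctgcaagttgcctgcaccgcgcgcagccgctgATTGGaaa

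The motifs searched on both strands were TGACNNNGC, the core of the element bound by NFE2L1 and NFE2L2, CCAAT, the box bound by NF-Y, TTCNNNGAA, the STAT element, and the interferon-stimulated element, a pair of GAAA runs with 2 bases between them. Psmb5 held TGACNNNGC 47 to 39 bases before the start and Psmb6 held it 9 to 1 bases before. Psmb8 held TTCNNNGAA 97 to 89 bases before the start, a motif that reads the same on both strands, and Psmb9 held CCAAT on the reverse strand 8 to 4 bases before. No match of 1 motif overlapped that of another in these 4 windows. RefSeq start windows were found for 35 of the 41 genes, 33 of them subunits, activators, inhibitor or chaperones with 36 windows. TGACNNNGC occurred in 4 of the 36 windows (11.1%), against 10.2% of all 32851 windows, and these 4 belonged to Psmb5, Psmb6, Psmc6 and Psmd9. CCAAT occurred in 12 (33.3%, against 33.8% of all), TTCNNNGAA in 2 (5.56%, against 7.02%) and the interferon-stimulated element in 3 (8.33%, against 2.98%). The windows with the interferon-stimulated element belonged to Psmb3, Psmd4 and Psmd9. A match describes these letters and is not evidence of a site in use.

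Values are log2 ratios of the 2 channels, without a level for either channel, so they cannot be compared with the abundance of a transcript. A ratio above 0 is read as higher in the mutant. This is the likely direction and not a known one: the labels list the mutant as channel 1, and the swapped arrays appear to have been turned before deposit, because identical software codes of extreme size were positive on the Cy5 arrays and negative on the Cy3 arrays. Between arrays of opposite dye, however, the log2 ratios of the 6364 probes measured on all 5 arrays had Pearson r between -0.25 and -0.01 across probes, and between arrays of the same dye between -0.01 and 0.11. Values with replicates 3 and 5 turned in sign are therefore given beside some of the members. The other members are not thereby free of this doubt. The array medians lay between -0.19 and 0.23 and were not removed. Of 9 tested probes of hepatocyte markers, 3 lay above and 6 below 0, with a median mutant coefficient of -0.13. Albumin, Alb, had log2 ratios from -0.34 to 0.08. Tat was below 0 on 5 of 5 arrays, with a coefficient of -0.78 ± 0.27 (SE; limma unadjusted p 0.0330, adjusted p 0.999). Being ratios, these values do not show how abundant the markers were, so the tissue label could not be checked against levels. A lower transcript level per cell and a lower share of a cell type cannot be told apart in whole liver.

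No proteasome probe passed the test against the wild-type pool. Each probe entered limma's moderated test, with a term for the dye, if 4 or 5 arrays gave a value and these included both dyes of the mutant. It admitted 35 of the 51 proteasome probes (68.6%) and 11300 of all probes (55.5%). After Benjamini-Hochberg adjustment over all 11300, it called 0 proteasome probes and 0 probes in all (0%), with an adjusted p of 0.999 for each tested proteasome probe. At an unadjusted p under 0.05 stood 1 of the 35, below 0, against 470 of all probes (4.16%), 266 of them above 0 (2.35%) and 204 below (1.81%). Of the 35 probes 19 lay above 0 and 16 below, with a median mutant coefficient, the log2 ratio weighted equally over both dyes, of 0.07 (all probes 0.04). With probes averaged per gene, 30 proteasome genes were tested, 0 were called and 1 had an unadjusted p under 0.05. The remaining 16 probes had values on 1 to 3 arrays and were not tested.

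**Figure D1:**
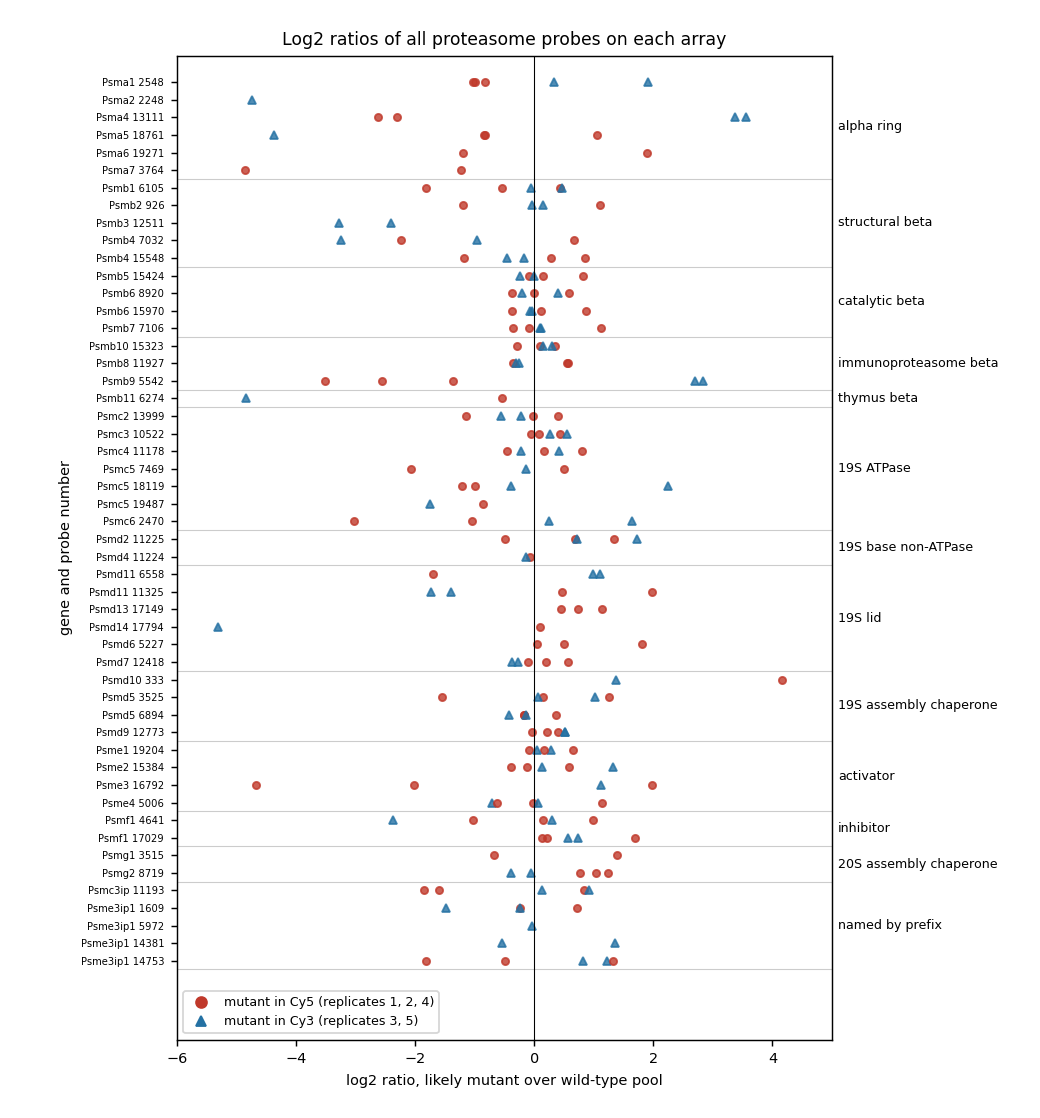
Log2 ratio of each of the 51 probes (rows, grouped by the role of the subunit) on each array, with circles where the mutant was in Cy5 and triangles where it was in Cy3. Catalytic beta probes lie between -0.38 and 1.13 and several ATPase probes near 0, whereas Psma4 and Psmb9 lie between -3.51 and -1.36 in Cy5 and between 2.69 and 3.55 in Cy3.

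**Figure D2:**
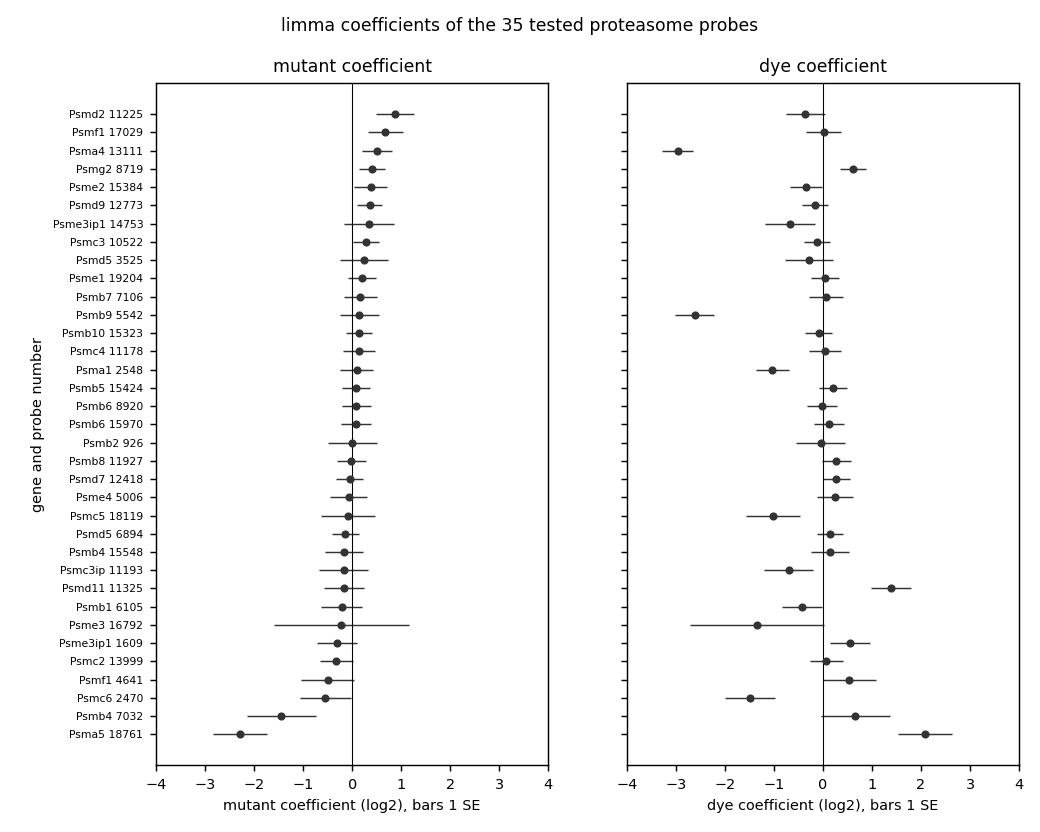
Mutant coefficient (left) and dye coefficient (right) of the 35 tested probes, in log2 units with bars of 1 SE from limma. Psma5 lies lowest on the left at -2.29 and Psmd2 highest at 0.87, and Psma4 lies lowest on the right at -2.96.

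In the alpha ring, whose subunits form the gate of the barrel, the 5 probes with more than 1 value had SDs between arrays from 1.27 to 3.42. Psma5 had the lowest p of all members, with log2 ratios of -0.84, -0.83, 1.05 and -4.37 on replicates 1, 2, 4 and 5, and no value on replicate 3. Replicate 5 was the lowest, and it was the single array of Psma5 with the mutant in Cy3. The mutant coefficient was -2.29 ± 0.56 (SE, 4 arrays; limma unadjusted p 0.0132, adjusted p 0.999), without a dye term it was -1.25, and with replicates 3 and 5 turned it was 2.08, of opposite sign. Without replicate 5 the probe had no Cy3 array and left the test. Psma4 had log2 ratios of -2.62 and -2.30 on replicates 1 and 2 and of 3.55 and 3.38 on replicates 3 and 5, with no value on replicate 4. Its values thus split by the dye of the mutant RNA with no overlap, a pattern not counted over other probes on 4 arrays. Its mutant coefficient was 0.51 ± 0.31 (SE), and the dye coefficient, the mean in Cy5 minus the mean in Cy3 divided by 2, was -2.96 ± 0.31. Psma1 ran from -1.03 to -0.82 on the Cy5 arrays and had 0.34 and 1.91 on the Cy3 arrays. These again did not overlap, as in 21.4% of all probes measured on all 5 arrays. The mutant coefficient of Psma1 was 0.09 ± 0.34, or -1.04 with replicates 3 and 5 turned. Of the other 3 alpha genes, Psma2 had 1 value, -4.73 on replicate 3. Psma6 had -1.19 and 1.90 on replicates 1 and 4, and Psma7 had -1.24 and -4.86 on the same arrays. No probe named Psma3 or Psma8 was among the members.

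The beta subunits without a proteolytic site, which shape the inner rings, had medians below 0 on 5 of 5 arrays. These were -0.38, -0.13, -0.17, -0.25 and -0.46 on replicates 1 to 5, from 4, 2, 5, 4 and 5 measured probes. The set of probes thus changed between arrays, and with replicates 3 and 5 turned the medians there would lie above 0. Of the 4 tested probes 1 lay above and 3 below 0, and 0 were called. Psmb1 had log2 ratios of 0.43, -0.54, -0.05, -1.82 and 0.46 on replicates 1 to 5, with a mutant coefficient of -0.22 ± 0.41. Psmb2 lay between -1.19 and 1.10 on 4 arrays, with a coefficient of 0.01 ± 0.50. Psmb4 was carried by 2 probes that disagreed. Probe 7032 had -2.24, -0.95, 0.67 and -3.25 on replicates 1, 3, 4 and 5, and probe 15548 had 0.85, -0.17, -1.17 and -0.46 there, so the sign was shared on 2 of the 4 arrays. Their mutant coefficients were -1.44 ± 0.71 and -0.17 ± 0.39, and both were above 0 with replicates 3 and 5 turned, at 0.66 and 0.15. Psmb3 was measured on replicates 3 and 5 only, at -3.28 and -2.40, and held a code on replicate 2. Psmb11, the subunit of the thymoproteasome of thymic epithelium, had values of -4.85 and -0.54 on replicates 3 and 4.

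The catalytic subunits of the constitutive core had SDs between arrays from 0.40 to 0.56. The median SD was 0.60 for members with 5 values and 0.71 for all such probes. Their log2 ratios lay between -0.38 and 0.41 on replicates 2 to 5, and between 0.58 and 1.13 on replicate 1. Psmb5, the chymotrypsin-like site, had log2 ratios of 0.81, 0.14, -0.24, -0.09 and 0.01 on replicates 1 to 5. Replicate 1 was the highest and the other 4 arrays lay within 0.25 of 0. Its mutant coefficient was 0.09 ± 0.29 (SE, 5 arrays). Psmb6, the caspase-like site, had 0.58, -0.01, -0.20, -0.38 and 0.41 in probe 8920, and 0.86, 0.11, -0.08, -0.37 and -0.04 in probe 15970. The 2 probes differed by a median of 0.12 over the arrays, and their mutant coefficients were 0.08 ± 0.30 and 0.07 ± 0.31. Psmb7, the trypsin-like site, had 1.13, -0.08, 0.10, -0.36 and 0.11, with a coefficient of 0.17 ± 0.34. In each of these 4 probes replicate 1 was the highest and replicate 4 or 3 the lowest.

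Among the immunoproteasome subunits, Psmb8 and Psmb10 lay as close to 0 as their constitutive counterparts, and Psmb9 did not. Psmb8 had log2 ratios of 0.57, 0.56, -0.26, -0.36 and -0.31 on replicates 1 to 5, with a mutant coefficient of -0.01 ± 0.29. Psmb10 had 0.35, 0.10, 0.31, -0.29 and 0.15, with a coefficient of 0.14 ± 0.27 and the smallest SD of the 3, 0.25. Psmb9 had -3.51, -2.56 and -1.36 with the mutant in Cy5, on replicates 1, 2 and 4, and 2.69 and 2.83 in Cy3, on replicates 3 and 5. All Cy5 arrays lay below and all Cy3 arrays above 0, so the mutant coefficient was 0.14 ± 0.40 and the dye coefficient -2.62 ± 0.40 (SE). With replicates 3 and 5 turned, Psmb9 would lie below 0 on all 5 arrays, at -2.62 ± 0.40, and Psma4 at -2.96 ± 0.31 on its 4 arrays. Under that reading 511 of the 6364 probes measured on all 5 arrays (8.03%) would have 1 sign. Of the 26 such members 3 would, Psmb9, Psma1 and Psmg2. Psmb9 and Psma4 would then have a limma adjusted p of 0.429 and still no call. That was the lowest value of all probes under that reading, shared with other probes, among them those of Hscb and Bsnd. Tap1, the peptide transporter gene beside Psmb9 in the MHC region, had log2 ratios of -0.01, 1.49, -0.04, -0.54 and -0.28 and did not share the split.

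**Figure D3:**
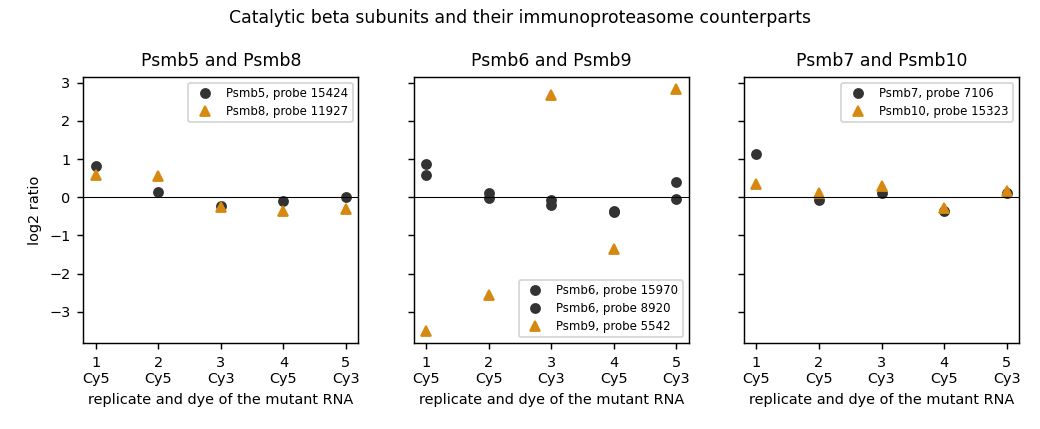
Log2 ratio by replicate and dye of the mutant RNA for each constitutive catalytic subunit (circles) and its immunoproteasome counterpart (triangles). Psmb5, Psmb7, Psmb8 and Psmb10 and both probes of Psmb6 stay between -0.38 and 1.13, and Psmb9 lies at -3.51 to -1.36 in Cy5 and at 2.69 and 2.83 in Cy3.

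Of the regulators, the ATPases that unfold substrates in the 19S base gave no call and no common sign. Psmc3 had log2 ratios of 0.44, -0.06, 0.26, 0.08 and 0.54 on replicates 1 to 5 and a mutant coefficient of 0.28 ± 0.27. Psmc4 had 0.81, 0.16, -0.21, -0.45 and 0.41, with a coefficient of 0.14 ± 0.32, and Psmc2 had 0.40, -0.02, -0.57, -1.14 and -0.22, with -0.32 ± 0.34. These 3 were measured on every array, with SDs of 0.25 for Psmc3, 0.50 for Psmc4 and 0.58 for Psmc2. Psmc6 had -1.05, 0.25, -3.03 and 1.64 on replicates 1, 3, 4 and 5. This split by dye without overlap was likewise not counted over other probes on 4 arrays. The coefficient of Psmc6 was -0.55 ± 0.52, or -1.49 with replicates 3 and 5 turned. The 3 probes of Psmc5 disagreed: the tested probe had -1.0, -0.39, -1.21 and 2.24 on replicates 1, 3, 4 and 5 and a code on replicate 2, and on replicate 5 another probe stood at -1.75, a gap of 3.99. The coefficient of the tested probe was -0.09 ± 0.55, or -1.01 with replicates 3 and 5 turned.

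The scaffold of the base gave the highest mutant coefficient of the members. Psmd2, which docks ubiquitin-like shuttle factors, had log2 ratios of 0.69, -0.48, 0.73, 1.33 and 1.73 on replicates 1 to 5, above 0 on 4 of 5 arrays. Its coefficient was 0.87 ± 0.39 (SE, 5 arrays; limma unadjusted p 0.0733, adjusted p 0.999). It ranged from 0.62 without replicate 5 to 1.12 without replicate 3, and was -0.36 with replicates 3 and 5 turned. The ubiquitin receptor Psmd4 had -0.06 and -0.13 on its 2 measured arrays, replicates 1 and 5. In the lid, Psmd7 had 0.58, 0.19, -0.38, -0.11 and -0.28, with a coefficient of -0.05 ± 0.27. The deubiquitinase Psmd14 had -5.32 on replicate 3 and 0.10 on replicate 4 and was not tested. Psmd13 and Psmd6 were measured on replicates 1, 2 and 4 alone, all with the mutant in Cy5, and lay above 0 on each, at 0.44 to 1.13 and 0.05 to 1.81. The 2 probes of Psmd11 had opposite signs on each of the 3 arrays they shared, with gaps from 2.16 to 2.72. The tested probe of Psmd11 had a coefficient of -0.17 ± 0.41, or 1.39 with replicates 3 and 5 turned.

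Proteins that help to assemble the 19S base but leave the finished particle were measured unevenly. Psmd9 had log2 ratios of 0.40, 0.22, 0.52, -0.03 and 0.52 on replicates 1 to 5, the smallest SD of any member measured on all 5 arrays, 0.24, and a mutant coefficient of 0.36 ± 0.26. It was above 0 on 4 of 5 arrays and is given as a value, since its adjusted p was 0.999. One probe of Psmd5 lay between -0.42 and 0.37 (coefficient -0.14 ± 0.27) and the other between -1.54 and 1.25 (0.24 ± 0.49), with 1 sign on 2 of 5 arrays. Psmd10, known as gankyrin, had 1.38 and 4.16 on replicates 3 and 4.

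The activators, which open the gate of the core without ATP, lay on both sides of 0. Psme1, of the interferon-induced PA28 ring, had log2 ratios of 0.65, -0.09, 0.28, 0.17 and 0.04 and a mutant coefficient of 0.20 ± 0.28. Its partner Psme2 had 0.59, -0.38, 1.32, -0.13 and 0.12, with 0.38 ± 0.34, or -0.35 with replicates 3 and 5 turned. Psme1 and Psme2 were both highest on replicates 1 and 3 and lowest on replicate 2. The nuclear PA28 subunit Psme3 had -4.66, -2.03, 1.97 and 1.13 on replicates 1, 2, 4 and 5, with -0.22 ± 1.37, the largest error of the tested members. With replicates 3 and 5 turned, Psme3 had -1.35. Psme4, which encodes PA200, had 1.13, -0.01, -0.70, -0.62 and 0.07, with -0.07 ± 0.37. Psmf1 encodes the inhibitor PI31. Its probe 17029 had 1.70, 0.14, 0.58, 0.22 and 0.74 and was the only member measured on all 5 arrays with 1 sign throughout, 1 of 26, against 381 of 6364 probes (5.99%). Its coefficient was 0.67 ± 0.35 (limma unadjusted p 0.114, adjusted p 0.999), and the other probe of Psmf1 had 0.16, 0.99, -2.37, -1.04 and 0.30, with -0.50 ± 0.54. With replicates 3 and 5 turned, probe 17029 had 0.01 and no longer 1 sign, and the other probe had 0.54. The core assembly chaperone Psmg2 had 1.24, 0.77 and 1.03 in Cy5 and -0.38 and -0.05 in Cy3, with 0.40 ± 0.27, and its partner Psmg1 had -0.68 and 1.39 on replicates 1 and 4.

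Psmc3ip and Psme3ip1 entered through their prefix alone and are no proteasome subunits. Psmc3ip, a meiotic recombination factor, had log2 ratios of -1.85, -1.60, 0.14, 0.83 and 0.92. Its mutant coefficient was -0.17 ± 0.50, or -0.70 with replicates 3 and 5 turned. The 4 probes of Psme3ip1, which encodes a binding partner of the nuclear PA28 ring, were measured on 1 to 5 arrays and had coefficients of -0.31 ± 0.41 and 0.35 ± 0.51 where tested. With replicates 3 and 5 turned, these were 0.55 and -0.68, both of opposite sign. Psmc3ip was in neither class of the comparison of core and regulators that follows, and Psme3ip1 was counted with the regulators and then left out.

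With every measured probe counted, the 20S core lay below the regulators on each array, by 0.03 to 0.75 on the log2 scale. This did not hold on each array under other settings, given below. The core class held 19 probes of 17 genes and the regulator class 27 probes of 20 genes. The median log2 ratio of the core was -0.25, -0.05, -0.12, -0.37 and 0.01 on replicates 1 to 5, from 16, 12, 16, 16 and 15 measured probes. The median of the regulators was 0.51, -0.02, 0.25, -0.03 and 0.06, from 22, 17, 21, 21 and 22 probes. The core minus the regulators was thus -0.75, -0.03, -0.37, -0.34 and -0.06, below 0 on 5 of 5 arrays, with a mean of -0.31 ± 0.29 (SD, n = 5 arrays). Replicates 2 and 5 lay close to 0 and replicate 1 alone gave the largest gap. Within the Cy5 arrays the differences ran from -0.75 to -0.03, and on the Cy3 arrays they were -0.37 and -0.06. Leaving out Psme3ip1 gave a mean of -0.27 ± 0.29, again below 0 on 5 of 5. No test was made of this score over a named list. All 5 differences share 1 wild-type pool.

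The gap was smaller among probes measured throughout. With the 10 core and 12 regulator probes measured on all 5 arrays, the difference was -0.01, 0.08, -0.33, -0.26 and 0.04, below 0 on 3 of 5 arrays, with a mean of -0.09 ± 0.19 (SD, n = 5). On replicate 1 the core median changed from -0.25 to 0.58 between the 2 sets of probes while the regulators stayed at 0.51 and 0.58. The mean difference was -0.20 without replicate 1, over 1.5 times smaller, and -0.14 with replicates 3 and 5 turned. The median mutant coefficient was 0.08 over the 14 tested core probes and -0.05 over the 17 tested regulator probes, beside 0.04 over all tested probes. The order of these medians depended on the setting: with codes kept or probes averaged per gene the regulators stood at 0.14, and with values on all 5 arrays required at 0.22, each above the core at 0.08. The interquartile range of the coefficients ran from -0.13 to 0.13 for the core and from -0.17 to 0.28 for the regulators, beside -0.26 to 0.39 for all.

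**Figure D4:**
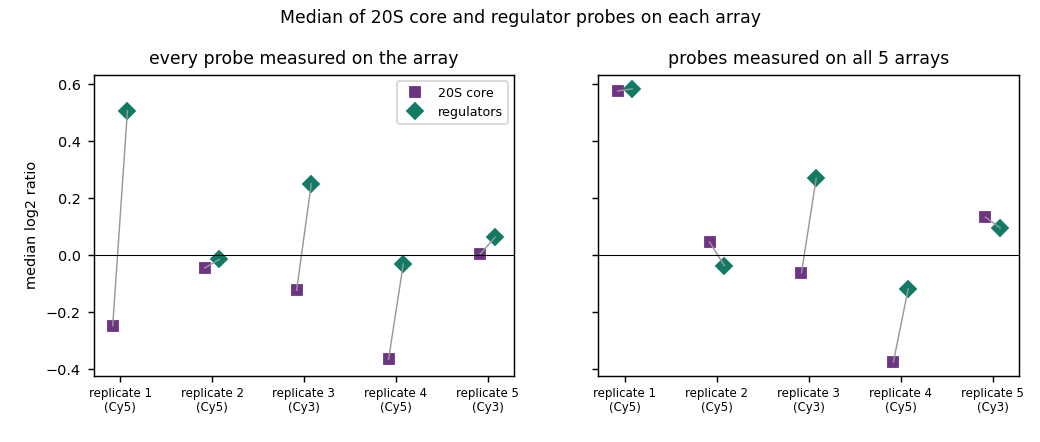
Median log2 ratio of the 20S core (squares) and the regulators (diamonds) on each array, with every measured probe on the left and the probes measured on all 5 arrays on the right. The core lies below the regulators on 5 of 5 arrays on the left and on 3 of 5 on the right.

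A larger share of proteasome probes than of all probes was measured on every array. Values on all 5 arrays were found for 26 of the 51 (51.0%), against 31.3% of all probes. On the arrays, the median distance of a proteasome probe from the array's median was 1.0, 0.31, 0.53, 0.73 and 0.46 on replicates 1 to 5, with a mean of 0.60 ± 0.27 (SD, n = 5), against 0.74 ± 0.09 for all probes. Replicate 1 was thus the only array on which the members lay farther out than all probes did (0.71). Over the 26 the median SD between arrays was 0.60, and over all probes with 5 values it was 0.71.

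A subset of 13 of the 26 members measured on all 5 arrays (50%) had an SD under 0.60, against 41.8% of all such probes. The limit was chosen after the values were seen, so the values of this subset are a description. The subset held all 4 probes of the constitutive catalytic subunits, Psmb8, Psmb10, Psmc2, Psmc3, Psmc4, Psmd7, Psmd9, Psme1 and 1 probe of Psmd5. On replicate 1 all 13 lay above 0, from 0.35 to 1.13 with a median of 0.58. The 2662 probes of the whole array under the same limit had a median of 0.26 there and a middle range from -0.03 to 0.53. On replicate 4, 11 of the 13 lay below 0, with a median of -0.29 against -0.13 for the 2662. The medians on replicates 2, 3 and 5 were 0.10, -0.20 and 0.04, against 0.00, -0.11 and 0.02. On each of the 5 arrays the median of the 13 had the sign of the median of the 2662 and lay farther from 0. A median of 13 probes varies more than that of 2662, so no conclusion is drawn from this.

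Agreement between probes of 1 gene varied over the whole range. The pair of Psmb6 differed by a median of 0.12 over 5 arrays. Among all 625 probe pairs of 1 gene measured on all 5 arrays, the median of this quantity was 0.70, and 26 pairs (4.16%) differed by as little. The other pairs of members on all 5 arrays were those of Psmd5, at 0.88, and Psmf1, at 1.26. Which probe of a pair that disagreed measured the named gene was not tested.

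Among probes measured on all 5 arrays, a lack of overlap between Cy5 and Cy3 arrays was about as frequent in the members as in all probes. A low unadjusted p for the dye coefficient was more frequent among the tested members than among all tested probes. Of the 26 members on all 5 arrays, 5 had no overlap between Cy5 and Cy3 arrays (19.2%), against 1360 of 6364 probes (21.4%). They were Psma1, Psmb9, Psmd7, Psmd9 and Psmg2. In limma, 6 of the 35 tested members (17.1%) had an unadjusted p under 0.05 for the dye coefficient, 2 above and 4 below 0, against 834 of 11300 probes (7.38%), 168 above (1.49%) and 666 below (5.89%). These 6 were Psma1, Psma4, Psma5, Psmb9, Psmc6 and Psmd11, and 3 of the 6 belong to the alpha ring. The tested probes of Psma4, Psma5, Psmc6 and Psmd11 had values on 4 arrays, so they were outside the count of overlap. The lowest adjusted p was 0.429, and 0 members and 0 of all probes (0%) were called.

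Other genes of the pathway also gave no call. Of 4 listed ubiquitin precursors none had a probe. Of the receptors and enzymes bound to the 19S particle, 4 of 10 listed names had probes and 4 probes were tested, with 0 above and 4 below 0 and a median mutant coefficient of -0.13. Among them were both probes of the tethering factor Ecpas, at -0.06 ± 0.32 and -0.24 ± 0.45, and the small lid subunit Sem1 at -0.15 ± 0.32. Of the shuttle factors and delivery proteins, 11 probes of 8 genes were tested, with 6 above and 5 below 0 and a median of 0.09. The segregase gene Vcp had log2 ratios of 0.65, 0.31, 0.06, 0.05 and 0.33, above 0 on 5 of 5 arrays, with 0.27 ± 0.27. The assembly factor Pomp had 0.71, -0.13, -0.39, -0.26 and -0.14, with -0.08 ± 0.30. Its order of arrays, from replicate 1 as the highest through 2, 5 and 4 to 3 as the lowest, was also that of Psmb5. Psmb7 and both probes of Psmb6 had other orders, and how many further probes shared it was not counted.

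Regulators of proteasome genes and the antigen processing pathway were measured in part. Of the transcription factor list, 5 probes of 4 genes were tested, 2 above and 3 below 0, with a median of -0.23. Nfe2l1, which raises proteasome genes when activity falls short, had -0.22, -3.53, 0.96, -0.35 and 0.24 in its only tested probe, with -0.38 ± 0.60. Its untested probes disagreed with this one. Probe 209 had 1.40 and 2.83 on replicates 1 and 5, and probe 2595 had -1.06, 0.87 and 3.45 on replicates 1 to 3. The antigen processing list had 3 of 4 tested probes above 0 and a median of 0.21, with Irf1 at 0.41 ± 0.29, B2m at 0.33 ± 0.29 and Tap1 at 0.08 ± 0.39. In none of these 5 lists with probes did a probe have an unadjusted p under 0.05, against 4.16% of all probes. Lymphocytes carry immunoproteasome subunits at a high level. Their markers had 2 tested probes, both above 0, Cd3g at 1.69 ± 0.95 and Ptprc at 0.60 ± 0.56. The markers had no common sign, however. Cd3e, not tested, had -0.64 and -1.79 on replicates 4 and 5, where Cd3g had 5.01 and 3.04. An untested probe of Cd8a had -0.97, -0.14 and 2.97 on replicates 2, 3 and 5. Over the lymphocyte list the medians of single arrays ran from 0.03 to 2.26. The part of lymphocytes in the values of Psmb8, Psmb9 and Psmb10 was not tested. Macrophage markers had 1 of 4 tested probes above 0, Ctss at 2.41 ± 0.48 (limma unadjusted p 0.00627, adjusted p 0.999). Ctss had 3.94 on replicate 3, its only Cy3 array, and 0.23, 1.78 and 0.62 on replicates 1, 2 and 4. The dye coefficient of Ctss was -1.53. Below 0 were both probes of Lyz2, at -0.54 ± 0.39 and -0.24 ± 0.26, and Cd68 at -0.19 ± 0.70. Erythroid markers had 8 of 8 above 0, 5 of them probes of Hba-a1, with 1 probe of Car2 at 0.97 ± 0.35 (limma unadjusted p 0.0362, adjusted p 0.999). Endothelial markers had 0 of 2 above 0, beside 53.9% of all tested probes.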

How the data were processed

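Total RNA (20 µg) from 5 mutant livers was labelled indirectly with Cy3 or Cy5 and mixed with the pool in the other dye, per the labels' protocols. The deposited values are log2 ratios; that scale was read from the values. Scanner, background correction and normalization: not stated in the labels. The authors' value table was used as deposited, except that 788 codes over 12 in size (2 on proteasome probes, replicate 2) were set to missing. Missing values made up 21.9% to 33.3% of an array. No value column was left unused (0 columns).

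Probes were named through the platform annotation: 14030 probes had 1 symbol, 5 several and 6320 none here. All 51 members matched a RefSeq gene identifier (GRCm38.p6), with 0 symbols changed. limma (version 3.58.1, R 4.3.3) fitted intercept and dye (lmFit, eBayes; prior 2.24 degrees of freedom, prior SD 0.85), and the fit was tested on simulated data. Figures used matplotlib 3.10.9. Whether replicates differ by animal only is as the labels give it; precision is limited by 5 arrays, and no counts exist. The members, lists and named-gene rule were chosen with earlier results of these data known. Named were the catalytic subunits, the 10 members with the lowest p, those with the 5 smallest and 5 largest SDs, genes with several probes, probes of 1 sign, activators, inhibitor and chaperones, and the 3 largest dye coefficients. Values of other members were added for completeness. Alternatives were the array minimum, small whole-number ratios left out, centring, quantile normalization, codes kept, no dye term, replicates 3 and 5 turned, gene averages and each replicate left out.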

Additional observations from a re-analysis of the deposited data

Results flagged for a closer look

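Of 40 sets of 4 or 5 array values examined, for member probes and for the class medians, 0 held an array far from all the others by Dixon's criterion, where chance gives about 5%.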

How the results depend on the processing

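No probe was called under any alternative run (0 in each, at a limma adjusted p under 0.05). The count of proteasome probes at an unadjusted p under 0.05 in limma, 1 in the report, was 0 when values on all 5 arrays were required, when values at ratios of small whole numbers were left out and without a dye term, and 6 with replicates 3 and 5 turned. It ran from 0 (without replicate 5, when Psma5 left the test) to 2 (without replicate 2, when Psmd2 joined) over the 5 left-out arrays. The median mutant coefficient of the regulators was 0.22 with values on all 5 arrays and 0.23 without small whole-number ratios, in place of -0.05. It also lay above 0 with codes kept or gene averages (0.14), under quantile normalization (0.04) and without replicate 3 (0.08) or 4 (0.07), and was 0.00 without a dye term. That of the core was -0.05 without replicate 1, in place of 0.08. The core minus the regulators stayed below 0 on average in each alternative that gave a value, from -0.44 (means over probes) to -0.09 (probes on all 5 arrays), and a minimum of 3 arrays and the fit without a dye term give it no separate value. It was below 0 on 4 of 5 arrays with small whole-number ratios left out, codes kept, gene averages or base chaperones left out, and on 3 of 5 with replicates 3 and 5 turned. On replicate 1, small whole-number ratios made up 41.9% of member values, against 22.4% of all values. Of 30 named tested probes, 26 changed sign under at least 1 alternative; those of Psmc6, Psme1 and Psmg2 and probe 17029 of Psmf1 did not. These were 53 sign changes in 402 values, with limma adjusted p from 0.429 to 1 and no call. Leaving out Psme3ip1 and the genes named by prefix was chosen after seeing the data. No paired analysis was possible because there is 1 group. Signal over background is not known from ratios.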
